A study of Mus musculus with 6 samples.

Results

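The acute-phase response genes are 36 genes for plasma proteins, surface receptors and signalling proteins that the liver uses in its reaction to inflammation or injury, chosen by gene symbol. Of these, 34 were measured among the 19505 genes tested, each by 1 row of the array table, and the names of Serpina3k and Serpina3m were not found among its rows. The genes were read in livers of male mice on a C57BL/6 background, all aged 8 weeks, with the genotype HMGB2-KO (n = 3) or WT (n = 3). HMGB2 is a DNA-bending chromatin protein, and the study screened for genes related to its expression. HMGB2-KO livers 1, 2 and 3 came from animals 39, 41 and 32, and WT livers 1, 2 and 3 from animals 38, 40 and 31. The labels name no treatment or surgery, and the sources used here do not say which part of Hmgb2 was deleted or whether the deletion was limited to a cell type.

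In the acute-phase response, cytokines released by activated macrophages, above all interleukin 6 and interleukin 1, act on hepatocytes, which then change the set of proteins they secrete. Interleukin 6 works through its receptor chains and the transcription factor STAT3, interleukin 1 works through NF-kB, and C/EBP factors take part in both routes. Positive acute-phase proteins such as serum amyloid A rise in plasma, while negative ones such as albumin decline. In mice serum amyloid A is the main acute-phase protein, and C-reactive protein responds little.

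Each value below is a log2 difference from a baseline of its own row, with the median of every array set to 0. That baseline is unknown and the logarithm is taken here as base 2, so livers can be compared with one another and genes cannot be ranked by level. For the same reason the labelled tissue could not be checked by the level of hepatocyte markers. Hmgb2 itself was at -0.66, -0.33 and -0.43 in HMGB2-KO livers 1 to 3, against 0.47, 0.36 and 0.42 in WT livers, a log2 fold change of -0.89 (SE 0.13), so no liver went against its labelled genotype. The array of WT liver 2 stood apart before centring, with a median of 0.26 against -0.05 to 0.01 on the other 5 arrays, and a median of 0.54 against -0.11 to 0.01 over 1414 rows of olfactory and vomeronasal receptors. This touches the acute-phase genes directly. WT liver 2 was the lowest of the 6 livers for 14 of the 34 genes after centring, against 22.3% of all genes, and for 3 with the values as deposited. WT liver 1 was the lowest for 13 after centring, against 12.0% of all genes, and for 12 as deposited. The shares of all genes as deposited were not computed. The median of the 34 genes in that liver was -0.47 after centring and -0.22 as deposited, where the medians of the other 5 livers lay between -0.40 and -0.24.

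None of the 34 genes differed between HMGB2-KO and WT livers at an adjusted p under 0.05 in limma, as was the case for all genes tested (0%). Their adjusted p-values lay between 0.994 and 0.999, and the smallest of any gene was 0.350. The targeted gene Hmgb2 did not pass either, at an adjusted p of 0.645 in limma, so a failed test says little about a difference. Before adjustment, 0 of the 34 had a limma p under 0.05 in either direction, against 1.06% of all genes higher and 2.61% lower in HMGB2-KO, and the test without moderation also gave 0. The log2 fold change was above 0 for 30 of the 34, against 49.5% of all genes, and its median was 0.12 over the 34 and -0.00 over all genes. With the values as deposited, 19 of the 34 were above 0, against 23.0% of all genes, and their median was 0.01, against -0.12 for all genes. Without HMGB2-KO liver 3, and with WT liver 3 kept, 17 of the 34 were above 0, against 48.3% of all genes. Their median was then 0.0044. With both livers numbered 3 left out, 25 of the 34 were above 0, against 47.9% of all genes, and the median was 0.0995. In bulk liver RNA, fewer cells of a type and less RNA per cell cannot be told apart. All 13 measured markers of Kupffer cells and macrophages, of 14 listed, were also higher in the HMGB2-KO livers, with a median log2 fold change of 0.22 (0.10 and 11 of 13 as deposited), and their part in the shift of the acute-phase genes was not tested. The medians of the other cell-type lists ran from -0.22 for cholangiocytes, with 5 of 7 markers lower, to 0.06 for B and plasma cells.

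**Figure D1:**
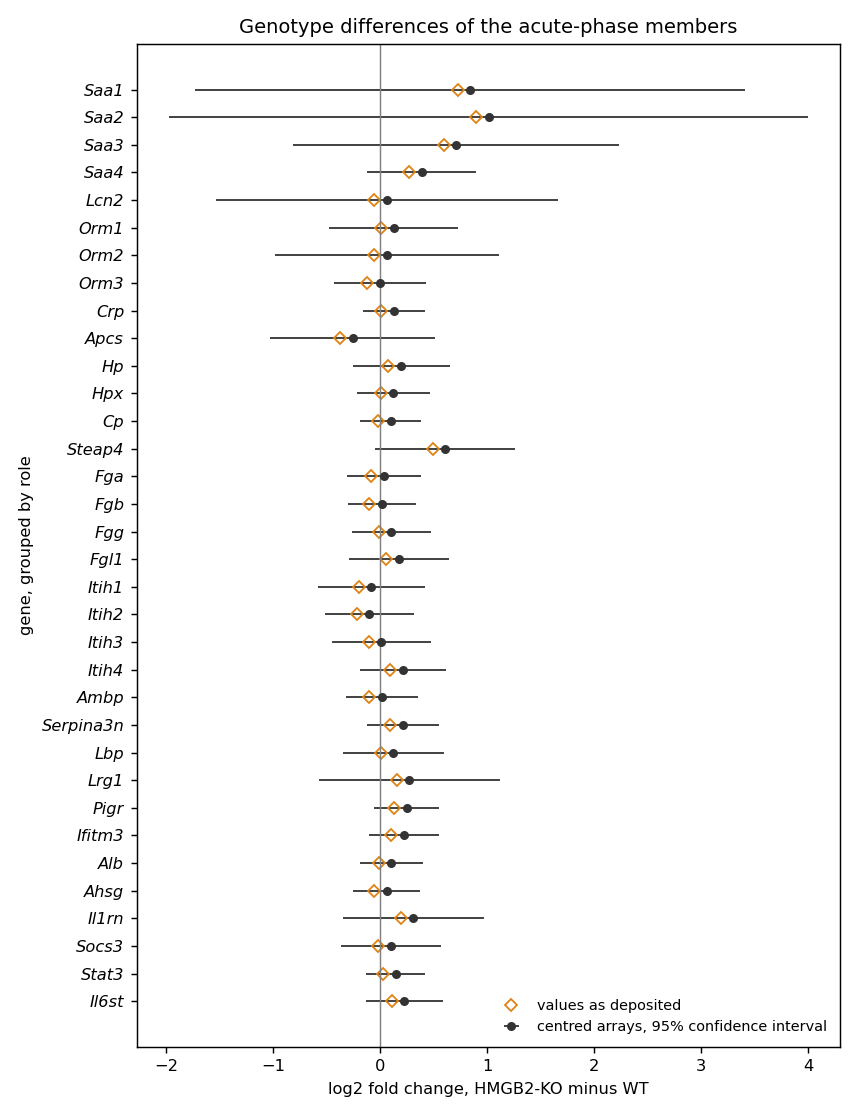
Log2 fold change of HMGB2-KO over WT (horizontal axis) for each of the 34 measured acute-phase genes (vertical axis, grouped by role), as black points with 95% confidence intervals after centring and as open diamonds with the values as deposited. Every interval includes 0, and the widest belongs to Saa2, from -1.98 to 4.00.

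The promoters of Saa1, Saa2, Saa3 and Lcn2 are shown because these 4 genes spread most between the 6 livers. Each runs from 250 bases before to 50 bases after the start of the gene in RefSeq, on GRCm38.p6, 5′ to 3′ on the strand of the gene. Saa1 lies at chr7:46742931-46743230 on the minus strand, Saa2 at chr7:46751583-46751882 on the plus strand, Saa3 at chr7:46715627-46715926 on the minus strand and Lcn2 at chr2:32387690-32387989 on the minus strand. Capitals mark matches to TTNNGNAA or its reverse TTNCNNAA, a loose form of the site that C/EBP factors bind.
Saa1: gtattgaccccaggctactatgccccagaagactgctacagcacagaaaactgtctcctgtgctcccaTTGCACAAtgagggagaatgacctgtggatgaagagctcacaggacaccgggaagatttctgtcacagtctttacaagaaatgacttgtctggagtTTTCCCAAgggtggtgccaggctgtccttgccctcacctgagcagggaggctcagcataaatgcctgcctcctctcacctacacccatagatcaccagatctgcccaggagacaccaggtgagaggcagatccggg
Saa2: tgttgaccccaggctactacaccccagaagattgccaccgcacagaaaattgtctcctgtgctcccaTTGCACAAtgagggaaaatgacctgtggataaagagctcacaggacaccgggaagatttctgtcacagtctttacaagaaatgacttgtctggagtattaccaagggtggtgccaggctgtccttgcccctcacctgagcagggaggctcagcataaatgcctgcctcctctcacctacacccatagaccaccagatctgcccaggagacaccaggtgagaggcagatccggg
Saa3: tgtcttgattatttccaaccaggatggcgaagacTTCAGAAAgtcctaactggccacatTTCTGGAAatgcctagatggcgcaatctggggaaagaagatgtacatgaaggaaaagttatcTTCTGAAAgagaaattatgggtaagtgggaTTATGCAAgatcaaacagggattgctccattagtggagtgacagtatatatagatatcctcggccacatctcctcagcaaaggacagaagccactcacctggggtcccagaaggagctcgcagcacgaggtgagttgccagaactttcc
Lcn2: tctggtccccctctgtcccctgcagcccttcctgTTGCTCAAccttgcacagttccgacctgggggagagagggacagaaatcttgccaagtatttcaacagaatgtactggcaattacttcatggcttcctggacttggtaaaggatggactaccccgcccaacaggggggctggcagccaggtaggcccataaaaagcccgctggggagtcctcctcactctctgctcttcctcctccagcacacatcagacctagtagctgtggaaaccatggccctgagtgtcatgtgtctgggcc

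The windows of Saa1 and Saa2 were identical at 287 of 301 positions of their alignment, gaps included, or 95.3%. Both hold TTGCACAA, 182 bases before the start in Saa1 and 183 in Saa2. Saa1 matched Saa3 at 50.1% of positions and Saa4 at 44.0%, gaps included, so the near identity was limited to 1 of these 3 pairs. Windows were found for 30 of the 36 genes, 33 in all. Cp and Il1rn each have windows that overlap, so the same match may be counted again. A C/EBP match stood in 23 of the 33 windows, from 21 genes, or 69.7%, against 40.7% of 32851 windows of all genes. TTCNNNGAA, a palindromic form of the STAT site, stood in 8 of the 33 (24.2%) against 8.30% of all windows, among them those of Fga, Fgb, Apcs, Socs3 and Steap4. GGGNNTT followed directly by NCC, for NF-kB, stood in 4 windows (12.1%), from 3 genes, against 4.79%. Both strands were searched, and matches of different motifs may overlap. A match is a description of letters, and binding was not measured here.

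Serum amyloid A proteins are carried on high-density lipoprotein, and Saa1 and Saa2 are the copies that hepatocytes secrete in the acute phase. Saa1 was at -4.70, -4.04 and -0.43 in HMGB2-KO livers 1 to 3, against -4.95, -4.27 and -2.48 in WT livers 1 to 3. Saa2 was at -6.09, -5.28 and -0.89 in HMGB2-KO livers, against -5.74, -5.88 and -3.67 in WT livers. In each genotype liver 3 was the highest and the other livers lay close together, and the genotypes overlapped. The highest and the lowest liver differed 22.9-fold for Saa1 and 36.8-fold for Saa2, which ranks 36 among all genes by its range. The log2 fold change was 0.84 (SE 1.11, 95% confidence interval -1.73 to 3.41) for Saa1 and 1.01 (SE 1.29, -1.98 to 4.00) for Saa2. Without HMGB2-KO liver 3 both turned, to -0.47 and -0.59, with WT liver 3 still included. With both livers numbered 3 left out they were 0.24 for Saa1 and 0.13 for Saa2. Saa1 and Saa2 are close copies and the probes were not examined, so signal of one on the probes of the other cannot be told apart, and their single values are uncertain.

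Saa3, which macrophages and fat cells also make, was at -2.01, -1.61 and -0.28 in HMGB2-KO livers, against -1.62, -3.41 and -1.002 in WT livers. Liver 3 was again the highest of each genotype, and WT liver 2 alone made the low end. Its log2 fold change was 0.71 (SE 0.66), and 0.01 without WT liver 2. Saa4, the constitutive member of the family, was at 0.44, 0.77 and 0.96 in HMGB2-KO livers, against -0.08, 0.63 and 0.46 in WT livers, a log2 fold change of 0.39 (SE 0.22). The low value of WT liver 1 and the high value of HMGB2-KO liver 3 made most of that gap, and the genotypes overlapped.

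Lcn2, lipocalin 2, binds bacterial siderophores and is a strongly induced product of the inflamed liver. It was at -5.10, -4.93 and -2.85 in HMGB2-KO livers, against -5.33, -4.43 and -3.28 in WT livers. Here too liver 3 was the highest of each genotype, and the log2 fold change was 0.06 (SE 0.69). Saa2, Lcn2 and Saa1 had the lowest, the second lowest and the third lowest median over the 6 livers of all 19505 genes, so the unknown baseline lies far above these livers for them. Orosomucoids are plasma lipocalins that bind drugs and other small molecules. Orm1 was at -1.30, -1.30 and -0.44 in HMGB2-KO livers, against -1.31, -1.27 and -0.84 in WT livers (log2 fold change 0.12, SE 0.26). Orm2 was at -2.46, -2.19 and -0.92 in HMGB2-KO livers, against -2.60, -1.83 and -1.32 in WT livers (0.06, SE 0.45). In both genes liver 3 was highest in each genotype and the groups overlapped. Orm3 moved little, between -0.31 and 0.12 in HMGB2-KO livers and between -0.39 and 0.11 in WT livers. The promoters of Orm2 and Orm3 were identical at 86.2% of the positions of their alignment, gaps included.

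**Figure D2:**
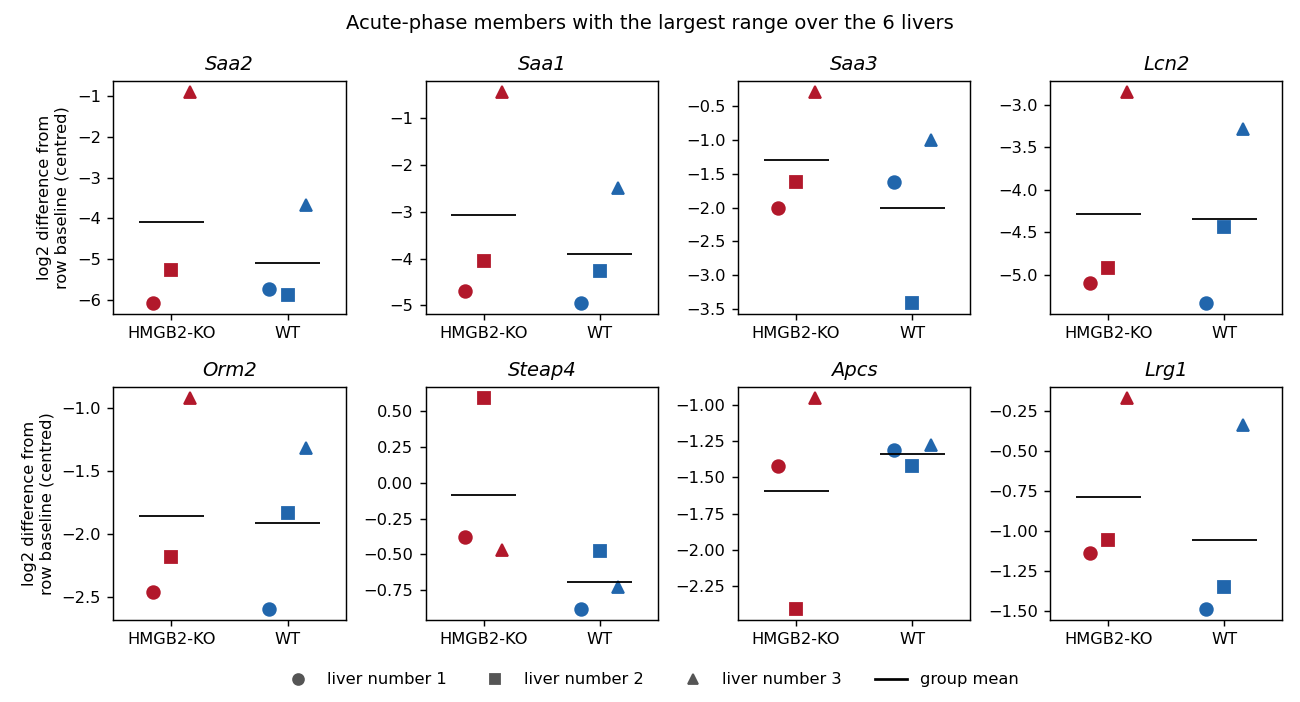
Log2 difference from the row baseline after centring (vertical axis, a scale of its own in each panel) in HMGB2-KO and WT livers for the 8 acute-phase genes with the largest range, with circles, squares and triangles for livers numbered 1, 2 and 3 and a bar at each group mean. The triangle is the highest point of both groups for Saa1, Saa2, Saa3, Lcn2, Orm2, Apcs and Lrg1, and for Steap4 the square of HMGB2-KO liver 2 stands above the rest.

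The 2 pentraxins, proteins that bind microbial and damaged surfaces, differed in their spread. Crp was at 0.34, 0.15 and 0.40 in HMGB2-KO livers, against 0.25, 0.11 and 0.14 in WT livers, a log2 fold change of 0.13 (SE 0.13). Its range of 0.29 was below the median range of all genes, 0.52. Apcs, serum amyloid P component, was at -1.42, -2.41 and -0.95 in HMGB2-KO livers, against -1.31, -1.42 and -1.27 in WT livers. The HMGB2-KO livers lay on both sides of the WT livers, and HMGB2-KO liver 2 was the low one. Its log2 fold change was -0.26 (SE 0.33), and 0.15 without that liver.

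Haptoglobin (Hp), which captures free haemoglobin, was at -0.86, -0.77 and -0.22 in HMGB2-KO livers, against -0.94, -0.89 and -0.61 in WT livers. Liver 3 was the highest in both genotypes. The log2 fold change was 0.19 (SE 0.20), -0.0035 without HMGB2-KO liver 3, and 0.10 with both livers numbered 3 left out. The haem carrier hemopexin (Hpx) and the copper protein ceruloplasmin (Cp) spread less, over 0.48 and 0.30, with log2 fold changes of 0.12 and 0.10.

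Steap4, a metalloreductase of iron and copper, had the smallest p of the 34 genes and was the only one whose genotypes did not overlap. It was at -0.38, 0.59 and -0.47 in HMGB2-KO livers, against -0.88, -0.47 and -0.72 in WT livers. HMGB2-KO liver 3 and WT liver 2 met at -0.47, so the gap between the groups was small, and HMGB2-KO liver 2 stood far above the rest. The log2 fold change was 0.61 (SE 0.28, 95% confidence interval -0.05 to 1.26), ranking 996 by p among all genes, and 0.27 without HMGB2-KO liver 2. The groups overlapped with the values as deposited and with the receptor rows left out of the centring. Of all genes, 4.32% had groups apart and higher in HMGB2-KO and 5.35% apart and lower, beside 1 and 0 of the 34.

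The fibrinogen chains, which form the clot, stayed close together. Fgb was at -0.09, -0.32 and -0.14 in HMGB2-KO livers, against -0.22, -0.35 and -0.03 in WT livers (log2 fold change 0.02, SE 0.14). After centring, liver 2 was the lowest of each genotype for Fgb, and also for Fga and Fgg, whose log2 fold changes were 0.03 and 0.10. With the values as deposited the 3 chains were at -0.10, -0.09 and -0.01. Fgl1, a fibrinogen-like protein secreted by hepatocytes, had liver 3 highest in both genotypes, at -0.81 in HMGB2-KO and -1.09 in WT, and a log2 fold change of 0.18 (SE 0.20).

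Several inter-alpha-trypsin inhibitor heavy chains bind hyaluronan in the extracellular matrix, and Ambp encodes the precursor of bikunin, the light chain of the inhibitor. Itih4, a member of this family known as an acute-phase protein, was at -0.85, -1.18 and -0.60 in HMGB2-KO livers, against -0.98, -1.25 and -1.04 in WT livers (log2 fold change 0.21, SE 0.17). Each HMGB2-KO liver lay above the WT liver of its number, but the groups overlapped. Itih1, Itih2 and Itih3 had log2 fold changes of -0.08, -0.10 and 0.0086, and Ambp of 0.01. For Itih1 and Itih2 liver 1 was the highest of each genotype, unlike the pattern of Saa1. Serpina3n, a serine protease inhibitor and the 1 measured gene of the 3 Serpina3 genes listed, was at -0.05, -0.16 and -0.20 in HMGB2-KO livers, against -0.59, -0.17 and -0.30 in WT livers. WT liver 1 stood low and the other 5 livers lay near one another, with a log2 fold change of 0.21 (SE 0.14).

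Lbp, which carries bacterial lipopolysaccharide to its receptor, was at -0.16, 0.03 and 0.60 in HMGB2-KO livers, against 0.09, 0.12 and -0.11 in WT livers (log2 fold change 0.12, SE 0.20). HMGB2-KO liver 3 was high, but WT liver 3 was the lowest WT liver. Lrg1, a secreted leucine-rich glycoprotein, was at -1.14, -1.06 and -0.17 in HMGB2-KO livers, against -1.49, -1.35 and -0.34 in WT livers (0.27, SE 0.36). As for Lcn2, liver 3 was the highest of each genotype. Pigr, the receptor that carries polymeric immunoglobulin across epithelium, was at 0.68, 0.46 and 0.71 in HMGB2-KO livers, against 0.27, 0.35 and 0.49 in WT livers (0.25, SE 0.13). HMGB2-KO liver 2 fell between WT livers 2 and 3, and the other HMGB2-KO livers lay above all WT livers. Ifitm3, an antiviral membrane protein induced by interferon and interleukin 6, was at 0.06, -0.10 and 0.09 in HMGB2-KO livers, against -0.34, -0.28 and 0.01 in WT livers (0.22, SE 0.14). WT liver 3 lay among the HMGB2-KO livers.

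The negative acute-phase proteins varied little, with a median range of 0.30. Alb, serum albumin, was between 0.03 and 0.05 in the HMGB2-KO livers, against -0.24 to 0.04 in the WT livers (log2 fold change 0.10, SE 0.13). WT liver 2 was the low one after centring, in which 0.26, more than the size of this low value, was subtracted from its array. Ahsg, the serum glycoprotein fetuin A, had a log2 fold change of 0.06 (SE 0.13). Without WT liver 2 these log2 fold changes were 0.0148 for Alb and -0.02 for Ahsg. With the values as deposited they were -0.0163 for Alb and -0.0605 for Ahsg.

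Among the signalling genes, Il1rn, the secreted antagonist of the interleukin 1 receptor, was at 0.88, 0.38 and -0.26 in HMGB2-KO livers, against -0.10, 0.31 and -0.14 in WT livers (log2 fold change 0.31, SE 0.28). It was the 1 gene of the 34 with liver 3 lowest in both genotypes, against 14.2% of all genes. Socs3, the feedback inhibitor of interleukin 6 signalling and itself a STAT3 target, was at -0.10, -0.11 and -0.22 in HMGB2-KO livers, against 0.13, -0.66 and -0.20 in WT livers (0.10, SE 0.20). Its WT livers lay on both sides of the HMGB2-KO livers, and liver 3 was not high in either genotype. Stat3 was at -0.39, -0.60 and -0.46 in HMGB2-KO livers, against -0.58, -0.69 and -0.61 in WT livers (0.14, SE 0.12). Il6st, the gp130 chain shared by receptors of the interleukin 6 family, was at 0.30, 0.54 and 0.40 in HMGB2-KO livers, against 0.37, -0.08 and 0.27 in WT livers (0.23, SE 0.16). WT liver 2 made the low end of Il6st, and its log2 fold change was 0.09 without that liver.

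Several of the 34 genes differed widely between livers of the same genotype. HMGB2-KO liver 3 was the highest of the 6 livers for 22 of them, against 17.6% of all genes. Liver 3 was the highest of both genotypes for 17 of the 34, against 15.0% of all genes, and these 17 include 6 of the 8 serum amyloid A, lipocalin and orosomucoid genes. Without centring the count was 10 (6.99% of all genes), and quantile normalization gave 11 (16.3%). It was 17 to 20 when a liver numbered 1 or 2 was left out, where the share of all genes was also larger, at 19.1% to 21.8%. The level of liver 3 exceeded the mean of livers 1 and 2 by 3.94 in HMGB2-KO and 2.13 in WT for Saa1. For Saa2 the excess was 4.80 in HMGB2-KO and 2.13 in WT, and for Lcn2 it was 2.16 and 1.60 in the same order. The labels give the livers numbered 3 the animal numbers 32 and 31 and the others 38 to 41, and they name no litter, day or batch for these numbers. Kupffer cell and macrophage markers had medians of 0.53, 0.41 and 0.60 in HMGB2-KO livers, against 0.26, 0.27 and 0.40 in WT livers, with liver 3 highest in both genotypes for 6 of 13. The 14 measured neutrophil markers had medians of 0.03, -0.07 and 0.06 in HMGB2-KO livers, against -0.01, 0.14 and -0.03 in WT livers, with liver 3 highest in both genotypes for 0 of 14. Their part in the pattern was not tested.

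**Figure D3:**
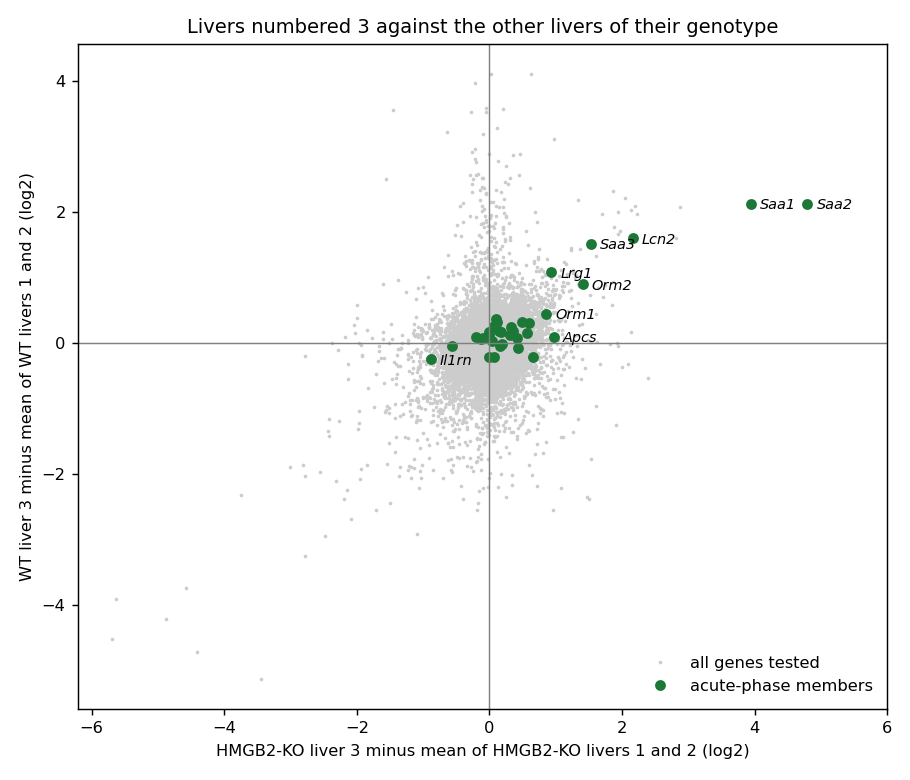
Level of liver 3 minus the mean of livers 1 and 2 in HMGB2-KO (horizontal axis, log2) and in WT (vertical axis, log2), for the acute-phase genes (green, named beyond 0.8 on either axis) and all genes tested (grey). Saa1 and Saa2 lie far to the upper right, followed by Lcn2, Saa3, Lrg1, Orm2 and Orm1, while Il1rn lies on the other side of 0.

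The spread was uneven within the group. A range of at least 1 log2 over the 6 livers was found for 10 of the 34 genes, against 10.7% of all genes, namely Saa1, Saa2, Saa3, Saa4, Lcn2, Orm2, Apcs, Steap4, Lrg1 and Il1rn. A value below the baseline in all 6 livers was found for 18 of the 34, against 7.35% of all genes. The median over the livers was below -1 for 10 of the 34, against 0.625% of all genes, and these 10 are Saa1, Saa2, Saa3, Lcn2, Orm1, Orm2, Apcs, Fgl1, Itih4 and Lrg1. Taking the livers by number, 26, 24 and 28 of the 34 genes were higher in HMGB2-KO than in WT for numbers 1, 2 and 3, against 45.7%, 50.8% and 52.5% of all genes. For 14 of the 34 this held in all 3 numbers, against 12.7% of all genes. These counts depend on the centring, most of all at number 2. There the median of the 34 genes was -0.35 in HMGB2-KO and -0.47 in WT after centring. As deposited the order was the reverse, at -0.40 and -0.22. The counts were not made with the values as deposited, and the numbers were not taken to pair the livers. For Saa2 the difference between the genotypes was -0.35, 0.60 and 2.79 at numbers 1 to 3, so its mean rests on number 3.

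**Figure D4:**
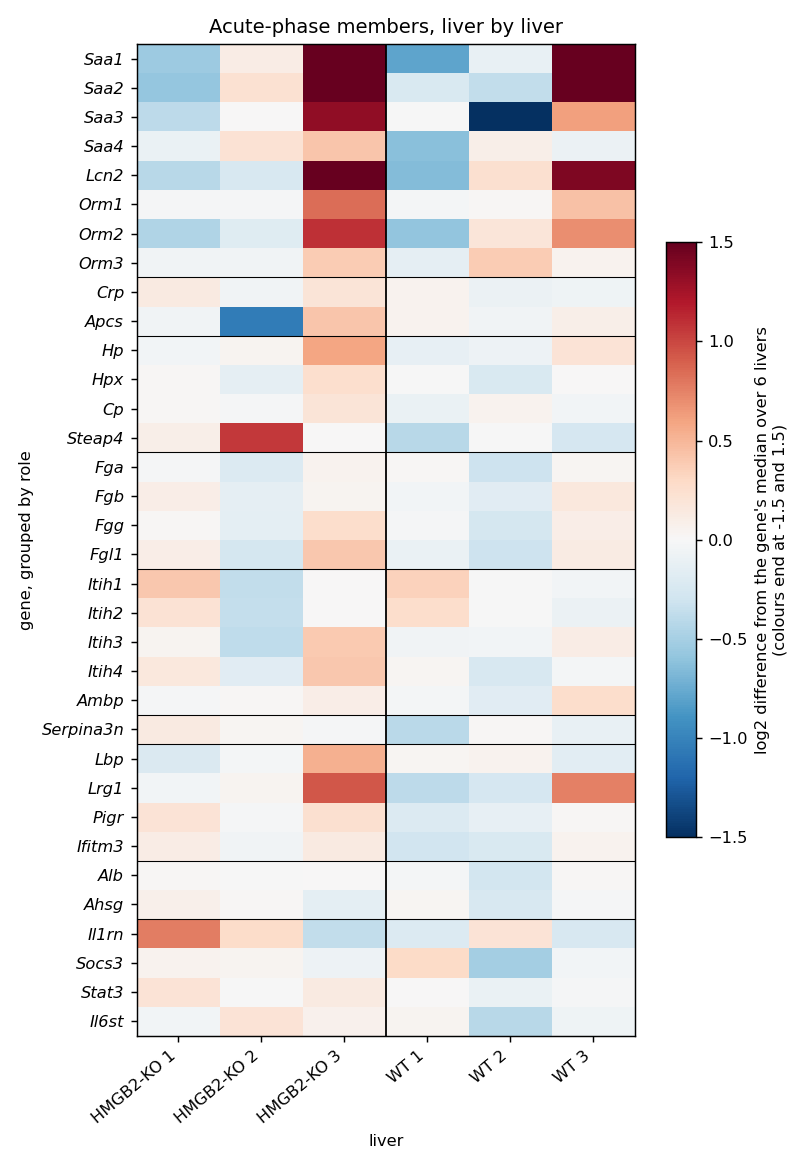
Log2 difference of each liver from the median of the gene over the 6 livers (colour, red above and blue below, ending at -1.5 and 1.5) for the 34 acute-phase genes in rows, grouped by role, with HMGB2-KO livers left of WT livers. The column of HMGB2-KO liver 3 is the highest for 22 genes, and the fibrinogen, inhibitor and signalling genes show paler colours than Saa1, Saa2, Saa3 and Lcn2.

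Other genes of the pathway did not pass the test either. Of 51 listed receptors, kinases and transcription factors of interleukin 6, interleukin 1 and STAT3 signalling 44 were measured. Of these 44, 24 were above 0, against 49.5% of all genes, with a median log2 fold change of 0.02 (-0.10 as deposited). The tumour necrosis factor receptor Tnfrsf1b was the 1 gene of these with an unadjusted p under 0.05 in limma, at 0.68 (SE 0.25, adjusted p = 0.994). Of all genes, 1.06% were higher and 2.61% lower in HMGB2-KO at that threshold. For Tnfrsf1b liver 3 was the lowest in both genotypes. It was at 0.95, 0.70 and 0.25 in HMGB2-KO livers, against 0.22, 0.14 and -0.50 in WT livers, where the groups did not overlap. Groups were also apart for Tnfrsf1a (0.25), for the ciliary neurotrophic factor receptor Cntfr (-0.17) and for the adaptor Myd88 (-0.18), which makes 4 of the 44 beside 9.67% of all genes in either direction, a share near the background. The oncostatin M receptor Osmr was at 0.40 (SE 0.19) and the transcription factor Junb at -0.41 (SE 0.23).

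Of 43 further positive acute-phase proteins 39 were measured, with 24 above 0, against 49.5% of all genes, and a median of 0.04. At an unadjusted p under 0.05 in limma there were 0, against 1.06% of all genes higher and 2.61% lower in HMGB2-KO. The 4 with the smallest p were Pla2g2a (-0.90), Mbl2 (-0.32), C9 (0.28) and Vnn3 (-0.17). Pla2g2a was at -2.37 in HMGB2-KO liver 2 and between -0.08 and 0.24 in the other 5 livers. Its log2 fold change was -0.12 without that liver. The groups of Serpina1c (0.04) did not overlap, where 4.32% of all genes had groups apart and higher in HMGB2-KO. Of 20 further negative acute-phase proteins 18 were measured, with 12 above 0, beside the same 49.5% of all genes. Their median was 0.05, with again 0 at an unadjusted p under 0.05. Among these were Rbp4, the plasma carrier of retinol (0.21), the apolipoprotein Apoa2 (2.44), Hrg (0.15), whose groups did not overlap, and Pon1 (-0.18). Apoa2 was at -7.26 in WT liver 2 and between 0.07 and 0.19 in the other 5 livers, and its log2 fold change was -0.02 without that liver.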

How the data were processed

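Total RNA of 6 livers was extracted with Trizol and hybridised to Clariom S mouse arrays, 1 column of values per liver, per the labels' protocols. The deposited table holds values on a log scale, taken as log2, each relative to a baseline of its row. The base of the log, the summarization of probes, the scaling and the baseline are not stated in the sources read here. Rows were named through the platform annotation (19572 of 22206 rows), and 55 genes had more than 1 row, of which the highest by mean was used, leaving 19505 genes. Each array was centred on its median.

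HMGB2-KO was compared with WT with the linear models of limma 3.58.1 (R 4.3.3, moderated by eBayes, two-sided, genotype as the only term), fitted on all genes with Benjamini-Hochberg adjustment and a threshold of 0.05. The labels give separate animal numbers, p-values measure the spread between these livers, and 3 arrays per group limit the precision. The script was tested on simulated data with independent normal errors for each gene, which held no shifted array and no livers that vary together. Intervals are at 95%. The alternatives were the values as deposited, quantile normalization, centring without receptor rows, the mean of rows, no moderation, array weights, the replicate number as a block, animals 38 to 41 only and each liver left out in turn. Counts of genes with liver 3 highest were set against these alternatives after their values were seen.

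The members, the lists and the rule for named genes were chosen with earlier results of these data known. The rule gives every liver for 16 index members and the 8 members with the smallest p, and for the other lists the 4 genes with the smallest p and any whose groups do not overlap. Further members are shown in every liver where they spread most, a choice made after their values were seen. Promoters are RefSeq windows on GRCm38.p6. A comparison of protein sequences was planned and not made.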

Additional observations from a re-analysis of the deposited data

How the results depend on the processing

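No gene passed the adjusted threshold of 0.05 in limma under any of the 14 alternatives, and 13 of the 34 acute-phase genes kept the direction of their log2 fold change in all of them, among these Saa3, Saa4, Crp, Steap4, Pigr and Stat3. The other 21 changed direction in at least 1, and most of these lie close to 0. With the values as deposited, 19 genes were higher in HMGB2-KO (23.0% of all genes), the median was 0.0053, groups were apart for 0 and liver 3 was highest in both genotypes for 10. The log2 fold changes were then -0.0588 for Lcn2, -0.0573 for Orm2, -0.0227 for Cp, -0.0862 for Fga, -0.10 for Fgb, -0.0148 for Fgg, -0.11 for Itih3, -0.11 for Ambp, -0.0163 for Alb, -0.0605 for Ahsg, -0.0217 for Socs3 and -0.0761 for Serpina1c. These values all lie 0.12 below the centred ones by construction. Quantile normalization gave 2 genes at an unadjusted p under 0.05 (Lcn2 and Steap4, beside 3.74% of all genes), liver 3 highest in both genotypes for 11, and -0.43 for Saa1, -0.67 for Saa2, -1.58 for Lcn2, -0.70 for Orm2 and 0.0544 for Orm3. It acts on ranks within an array, which are not ranks of level for values set against row baselines. The cause of these changes was not tested. With the receptor rows left out of the centring, groups were apart for 0 genes. Array weights gave 1 gene at an unadjusted p under 0.05 (3.98% of all genes), and 0.059 for Orm3, -0.0184 for Fga, -0.0003 for Fgb, -0.0056 for Itih3 and -0.013 for Socs3, for which the cause was not tested. The mean of rows and the test without moderation changed no direction.

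With the replicate number as a block, 2 genes (Saa4 and Steap4) had an unadjusted p under 0.05, near the share of all genes, 4.40%. The numbers were not taken to pair the livers, though same-numbered livers have consecutive animal numbers (39 and 38, 41 and 40, 32 and 31). Same-numbered livers deviated together with correlations of 0.04, 0.13 and 0.29 for numbers 1, 2 and 3. HMGB2-KO livers 2 and 3 correlated best with the WT liver of their number. HMGB2-KO liver 1 correlated best with WT liver 2, at 0.10. Whether the livers are paired was not settled. With animals 38 to 41 only, 2 livers a group, groups were apart for 11 of the 34 genes (32.8% of all genes, as fewer livers overlap less often), and the log2 fold change was -0.13 for Lcn2, -0.0121 for Orm1, -0.11 for Orm2, -0.13 for Itih3 and -0.17 for Lbp.

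When each liver was left out in turn, genes at an unadjusted p under 0.05 numbered 0 to 2 (3.08% to 4.84% of all genes), genes higher in HMGB2-KO 17 (without HMGB2-KO liver 3, 48.3% of all genes) to 34 (without HMGB2-KO liver 2, 50%), their median was 0.0044 to 0.21 for the same livers, and groups were apart for 3 to 7 of the 34, beside 17.9% to 21.8% of all genes. The log2 fold changes ran from -0.47 to 1.66 for Saa1, -0.59 to 2.01 for Saa2, -0.66 to 0.59 for Lcn2, -0.16 to 0.27 for Orm1, -0.41 to 0.36 for Orm2 and -0.15 to 0.14 for Orm3, in which the lowest came without HMGB2-KO liver 3. They ran from -0.58 to 0.15 for Apcs, -0.0035 to 0.31 for Hp, -0.0806 to 0.11 for Fga, -0.0578 to 0.10 for Fgb, -0.0051 to 0.20 for Fgg, -0.28 to 0.11 for Itih1, -0.23 to 0.0518 for Itih2, -0.18 to 0.21 for Itih3, -0.0828 to 0.13 for Ambp, -0.10 to 0.28 for Lbp, -0.0378 to 0.63 for Lrg1, -0.0245 to 0.12 for Ahsg, -0.11 to 0.28 for Socs3 and -0.0199 to 3.71 for Apoa2. Signal over background is not in the table, so dim genes cannot be set aside.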

Other observations

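Some other acute-phase genes lay far from the rest in the livers numbered 3, and those named here were chosen after their values were seen. Of the 39 further positive acute-phase proteins, liver 3 was the highest of both genotypes for 12, against 15.0% of all genes, and the lowest of both for 7, near the 14.2% of all genes. Hamp, which encodes the iron hormone hepcidin, was at -1.31, -0.81 and 1.13 in HMGB2-KO livers, against -0.66, -0.92 and 1.30 in WT livers. The metallothionein Mt2, which binds zinc, was at -0.28, -1.69 and -6.61 in HMGB2-KO livers, against -4.48, -0.42 and -6.37 in WT livers, and Mt1 ran the same way, at -5.20 in HMGB2-KO liver 3 and -5.07 in WT liver 3. Angptl4, an inhibitor of lipoprotein lipase, was at 1.78, 2.29 and -0.75 in HMGB2-KO livers, against 1.42, 1.56 and -1.76 in WT livers.

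Of the 44 pathway genes, liver 3 was the lowest of both genotypes for 8 and the highest of both for 4, shares near or below the 14.2% and 15.0% of all genes, so the counts say nothing particular of these genes. The 8 include the interleukin 6 receptor chain Il6ra, at 1.20, 1.81 and 0.14 in HMGB2-KO livers, against 1.27, 1.95 and -0.43 in WT livers. They also include the transcription factor Cebpb, at 0.12, 0.0051 and -0.68 in HMGB2-KO livers, against -0.37, 0.11 and -0.996 in WT livers. The livers numbered 3 had the highest Saa1 and Saa2 and the lowest Il6ra and Cebpb of their genotype, a description of 6 livers with no test. Il6ra and Cebpb are only part of the 8, and the 4 genes that went the other way are Il22ra1, Tyk2, Il1rap and Bcl3.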
